A study of Mus musculus with 2 samples.

Results

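Hcn2, Hcn3 and Hcn4 were followed across the nuclei of mouse vagus nerve ganglia. They were picked out by gene symbol, with earlier results of these data known, and are 3 of the 32286 features of the count matrix. HCN channels are hyperpolarization-activated, cyclic nucleotide-gated cation channels. They open when the membrane becomes more negative and pass an inward current that moves the cell back towards its firing threshold, and binding of cAMP makes them open more readily. This current paces the heartbeat and rhythmic firing in neurons, and in sensory neurons it shapes excitability and has been tied to inflammatory pain. Each channel is a tetramer of subunits from this gene family. HCN2 opens slowly and responds strongly to cAMP. HCN3 is a slow isoform with little response to cAMP. HCN4, the slowest and strongly cAMP-sensitive, is the main isoform of the sinoatrial node.

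The ganglia came from C57BL/6J mice that carried the Rosa26-floxed-STOP-Cas9-eGFP allele, were fed standard chow and were 8 to 9 weeks old when purchased. All of them received AAVrg-Cre, a retrogradely transported virus with Cre recombinase, in the liver, and the ganglia were taken 4 weeks later. The female library pooled 14 ganglia of 7 mice and the male library pooled 16 ganglia of 8 mice. With 1 library of each sex, sex and library cannot be told apart, no test between groups was possible, and every interval given here covers counting error only.

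The vagal ganglia hold placode-derived nodose neurons, which serve the viscera, and neural crest-derived jugular neurons, which resemble somatosensory neurons and express Prdm12. The nuclei were clustered without the HCN genes, and classes took their names from marker lists. There were 691 nodose-type nuclei, 186 from females and 505 from males, and 555 jugular-type nuclei, 181 and 374. Cerebellar granule-like nuclei, named after a small excitatory neuron of the cerebellum that is no cell of this ganglion, numbered 408, and 384 of them lay in the female library. P2rx2, an ATP-gated channel subunit of visceral afferents, stood at 0.987 UMIs per 10000 UMIs in nodose-type, 0.0827 in jugular-type and 0.193 in granule-like nuclei, Prdm12 at 0.0920, 1.29 and 0.109, and Gabra6, a GABA receptor subunit of granule cells, at 0.0090, 0.024 and 3.74. A UMI is a single counted RNA molecule, and this unit, the level, is used throughout. The median nucleus held 11793 UMIs in the nodose-type, 12517 in the jugular-type and 2380 in the granule-like class. The transgene feature EGFP had 1 UMI in all 8714 nuclei, so the neurons that project to the liver could not be set apart. Since the methods describe adding the growth hormone poly(A) of the virus, and not EGFP, to the genome used for counting, it is not known what this feature counts. The female library held 3791 nuclei with 17435300 UMIs and the male library 4923 nuclei with 27529730 UMIs, 8 barcodes occurred in both, and the sex-linked genes matched the labels.

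All of the members were sparse. Hcn2 had 773 UMIs in 643 of the 8714 nuclei, Hcn3 474 UMIs in 409 nuclei and Hcn4 344 UMIs in 268 nuclei. In the GENCODE annotation of the GRCm38 build, Hcn2 (ENSMUSG00000020331) lies on chromosome 10 from 79716634 to 79736108 on the plus strand and spans 19.5 kb. Hcn3 (ENSMUSG00000028051) lies on chromosome 3 from 89146074 to 89160196 on the minus strand and spans 14.1 kb. Hcn4 (ENSMUSG00000032338) lies on chromosome 9 from 58823412 to 58863175 on the plus strand and spans 39.8 kb. Each of them has 8 exons once the exons of its transcripts are merged, and introns make up 83.6% of the span of Hcn2, 70.6% of Hcn3 and 84.6% of Hcn4. The end of Hcn3 overlaps 711 bases of Pklr, the liver and red cell pyruvate kinase gene, on the opposite strand, and no other annotated gene overlaps a member.

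Since intronic reads were counted, levels of different genes were set side by side per kb of gene span. In nodose-type neurons the level per kb of span was 0.0123 for Hcn2, 0.0106 for Hcn3 and 0.00201 for Hcn4. In jugular-type neurons the same scale gave 0.00918 for Hcn2, 0.00766 for Hcn3 and 0.00186 for Hcn4. Per kb of exon the levels in nodose-type neurons were 0.0751 for Hcn2, 0.0359 for Hcn3 and 0.0131 for Hcn4. Hcn4 had the lowest level per kb of the members in both kinds of sensory neuron and on both scales. How far UMIs scale with either length was not tested, so the values per kb give no order of abundance. Per kb of span Hcn2 and Hcn3 could not be ranked over both libraries, with a log2 ratio of Hcn2 over Hcn3 of 0.22 in nodose-type (-0.08 to 0.53) and 0.26 in jugular-type neurons (-0.11 to 0.64), and in nodose-type neurons it was -0.16 in females (-0.69 to 0.38) and 0.41 in males (0.04 to 0.79). Per kb of exon Hcn2 was above Hcn3 in both, at log2 ratios of 1.07 (0.77 to 1.37) and 1.10 (0.73 to 1.48).

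The first comparison asked how the members differ between nodose-type and jugular-type neurons. None of them reached a 2-fold difference, the size rule used throughout in place of a test. Of the 16552 genes with at least 20 UMIs over both classes, 8.09% were at least 2-fold higher and 7.61% at least 2-fold lower in nodose-type neurons. Over both libraries Hcn2 and Hcn3 were modestly higher in nodose-type neurons, and Hcn4 had the smallest log2 ratio.

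For Hcn2 the level in nodose-type neurons was 0.218 in the female library (95% Poisson interval 0.170 to 0.277, 68 UMIs) and 0.25 in males (0.214 to 0.290, 172 UMIs). In jugular-type neurons Hcn2 stood at 0.168 in females (0.127 to 0.219, 55 UMIs) and 0.185 in males (0.151 to 0.223, 107 UMIs). Both nodose-type values of Hcn2 lay above both jugular-type values, while the intervals within each library overlapped. Over both libraries the log2 ratio of Hcn2 was 0.43 (exact 95% interval 0.13 to 0.72). It was 0.38 in females (-0.16 to 0.92) and 0.44 in males (0.08 to 0.80). When nuclei were assigned to classes one by one from marker lists instead of by cluster, the log2 ratio of Hcn2 was only 0.038. That rule gave 898 nodose-type but only 187 jugular-type nuclei. No interval was taken for this ratio, so it does not decide whether the difference holds.

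Hcn3 showed more spread between the libraries. Its level in nodose-type neurons was 0.177 in females (0.133 to 0.230, 55 UMIs) and 0.137 in males (0.110 to 0.167, 94 UMIs). Its level in jugular-type neurons was 0.0979 in females (0.0669 to 0.138, 32 UMIs) and 0.114 in males (0.0881 to 0.145, 66 UMIs). Taken as a whole, nodose-type neurons were the higher class for Hcn3 in each library, with a larger gap in the female one. The log2 ratio was 0.46 over both (0.09 to 0.85), 0.85 in females (0.20 to 1.53) and 0.26 in males (-0.21 to 0.74), and the last interval includes no difference. Not all nodose-type neurons shared the higher level. The largest group of them, 321 nuclei described below as sub-cluster 2, held Hcn3 at 0.0985 (0.0724 to 0.131, 47 UMIs). Jugular-type neurons as a whole stood at 0.108.

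Hcn4 had the lowest level of the members and the smallest log2 ratio between the classes. In nodose-type neurons its level was 0.0674 in females (0.0417 to 0.103, 21 UMIs) and 0.0857 in males (0.0652 to 0.110, 59 UMIs). In jugular-type neurons its level was 0.0581 in females (0.0350 to 0.0907, 19 UMIs) and 0.0828 in males (0.0611 to 0.110, 48 UMIs). The classes overlapped in both libraries. Over both libraries summed the log2 ratio was 0.11 (-0.37 to 0.60), and a 2-fold difference lies outside this counting interval in either direction. The libraries alone, with 21 and 19 UMIs in females, bound the ratio less closely. The summed interval also holds the log2 ratios of Hcn2 and Hcn3, so it does not rank the members by difference.

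**Figure D1:**
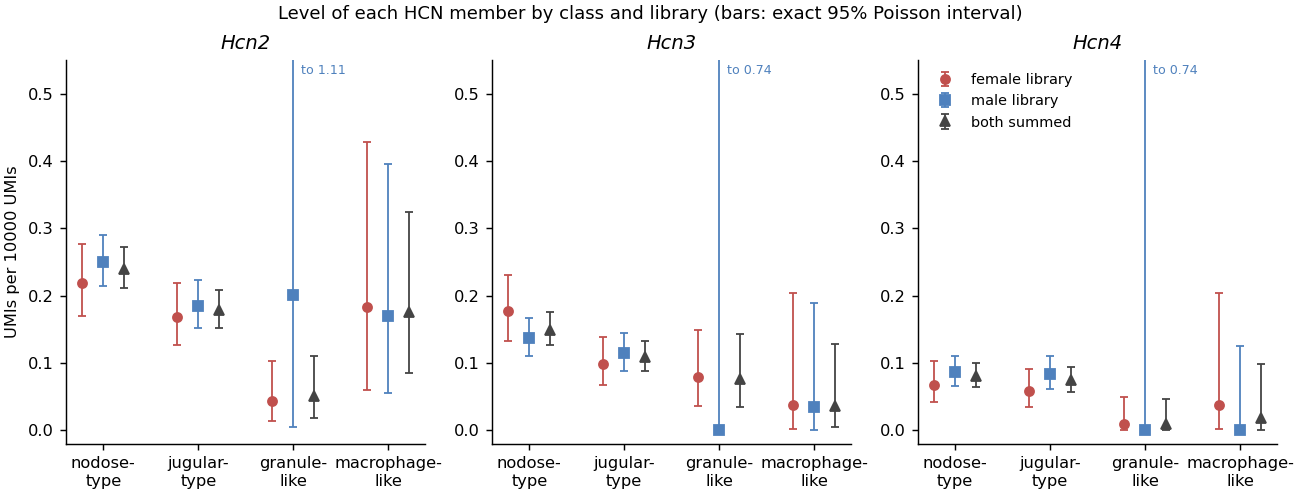
Level of each member in UMIs per 10000 UMIs (y axis) in nodose-type, jugular-type, granule-like and macrophage-like nuclei, for the female library (circles), the male library (squares) and both summed (triangles), with exact 95% Poisson intervals. Hcn2 stands highest in nodose-type neurons at 0.240, and the male granule-like class rests on 24 nuclei, so that its intervals run off the axis.

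Between the male and the female library, no member passed 2-fold within nodose-type or jugular-type neurons. Over the genes tested in nodose-type neurons, 2.06% were at least 2-fold higher and 1.46% at least 2-fold lower in the male library, and in jugular-type neurons 2.18% and 1.83%. In nodose-type neurons the log2 ratio of male over female was 0.19 for Hcn2 (-0.22 to 0.62), -0.37 for Hcn3 (-0.87 to 0.14) and 0.35 for Hcn4 (-0.39 to 1.14). In jugular-type neurons it was 0.13 for Hcn2 (-0.35 to 0.63), 0.22 for Hcn3 (-0.41 to 0.88) and 0.51 for Hcn4 (-0.28 to 1.36). Each of these intervals includes no difference. Those of Hcn4 also include 2-fold.

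The shares of nuclei with at least 1 UMI followed depth closely. Hcn2 was seen in 27.1% of nodose-type (95% Clopper-Pearson interval 23.8 to 30.5) and 23.2% of jugular-type nuclei (19.8 to 27.0), Hcn3 in 17.5% (14.7 to 20.6) and 15.0% (12.1 to 18.2), and Hcn4 in 9.55% (7.46 to 12.0) and 10.5% (8.03 to 13.3). In granule-like nuclei the shares were 1.47% for Hcn2 (0.542 to 3.17), 2.21% for Hcn3 (1.01 to 4.15) and 0.245% for Hcn4 (0.0062 to 1.36). In macrophage-like nuclei, a class that should lack neuronal channels, the shares were 3.66%, 0.733% and 0.366%, at a median of 1802 UMIs. When every nucleus was thinned to 1000 UMIs, Hcn2 remained in 1.74% of nodose-type, 1.44% of jugular-type, 0.246% of granule-like and 1.47% of macrophage-like nuclei. At that depth Hcn3 was in 1.59%, 1.08%, 0.985% and 0.368% of these classes, and Hcn4 in 0.579%, 1.26%, 0% and 0%. In this draw the share of Hcn2 in jugular-type and granule-like nuclei was no higher than in macrophage-like nuclei, and in nodose-type nuclei barely so. The thinned shares come from a single random draw without intervals and do not rank the classes. No expression of Hcn2 is read from them. The thinned shares of Hcn4 in nodose-type and jugular-type nuclei ran against its levels and give no order.

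In nodose-type nuclei of fewer than 5000 UMIs, 6.25% carried Hcn2, and in those of 20000 or more, 53.2% did. The levels of Hcn2 in the same groups were 0.156 (0.0506 to 0.364) and 0.252 (0.208 to 0.303) and their intervals overlapped. For Hcn4 the shares in these groups of nodose-type nuclei were 3.75% and 16.2%, while the level was 0.0936 (0.0193 to 0.274) in the shallow and 0.0674 (0.0458 to 0.0957) in the deep nuclei. Most nuclei with a member held a single UMI of it. Among nodose-type nuclei, 149 had 1 UMI of Hcn2 and 38 had 2 or more, and among jugular-type nuclei these numbers were 102 and 27.

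**Figure D2:**
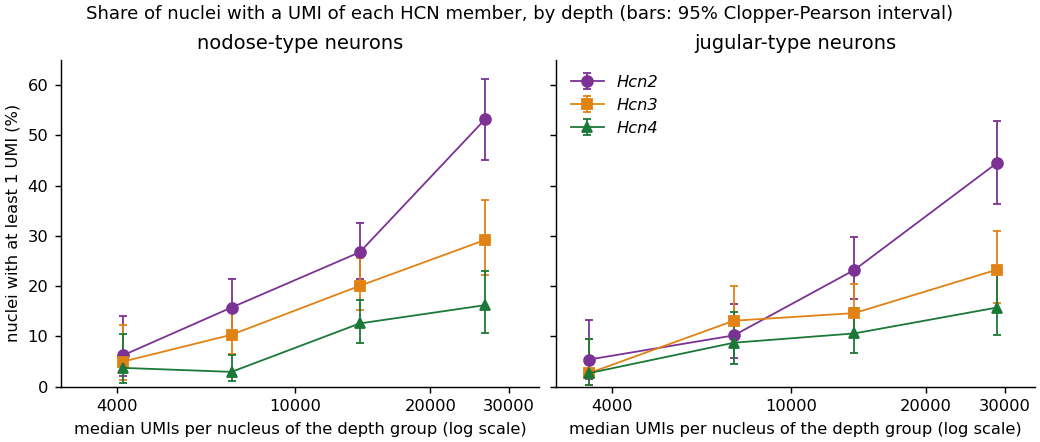
Share of nuclei with at least 1 UMI of each member (y axis, percent) against the median UMIs per nucleus of 4 depth groups (x axis, log scale), for nodose-type and jugular-type neurons, with 95% Clopper-Pearson intervals. The Hcn2 share of nodose-type nuclei climbs from 6.25% in the shallowest to 53.2% in the deepest group.

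Any of the members was seen in 295 of the 691 nodose-type nuclei, or 42.7%, in 225 of the 555 jugular-type nuclei, or 40.5%, and in 15 of the 408 granule-like nuclei, or 3.68%. More than 1 member was seen in 71 nodose-type and 43 jugular-type nuclei, and all of them in 8 and 2. In nodose-type nuclei Hcn2 and Hcn3 were found together in 45, which is 24.1% of the nuclei with Hcn2 and 37.2% of those with Hcn3. In jugular-type nuclei they were together in 19, 14.7% and 22.9% of the nuclei with each. The nuclei with both were deep, with a median of 23096 UMIs in the nodose-type class against 9521 in nuclei with neither, and the part of depth in this overlap was not tested.

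The second comparison set the sensory neurons, nodose-type and jugular-type together, against the granule-like nuclei. Hcn2 and Hcn4 were past 2-fold higher in sensory neurons and Hcn3 was not. Of 16802 genes tested, 18.3% were at least 2-fold higher and 15.1% at least 2-fold lower in sensory neurons. Hcn2 stood at 0.211 in sensory neurons (402 UMIs) and 0.0503 in granule-like nuclei (6 UMIs), a ratio of 4.20 (1.91 to 11.5). Hcn4 stood at 0.0771 (147 UMIs) and 0.0084 (1 UMI), a ratio of 9.20 with a counting interval of 1.63 to 366. Hcn3 stood at 0.130 (247 UMIs) and 0.0754 (9 UMIs), with a log2 ratio of 0.78 (-0.17 to 1.93).

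Since nearly all granule-like nuclei were in the female library, the same ratios were taken within it. Hcn2 and Hcn4 were past 2-fold there as well, beside 15.7% of genes, with log2 ratios of 2.14 for Hcn2 (0.88 to 3.79, 123 against 5 UMIs), 0.79 for Hcn3 (-0.20 to 1.97, 87 against 9 UMIs) and 2.84 for Hcn4 (0.28 to 8.18, 40 against 1 UMI). The male library, with 24 granule-like nuclei and 49972 UMIs in them, had 1 UMI of Hcn2 there and none of Hcn3 or Hcn4. That single UMI put Hcn2 at 0.20 in male granule-like nuclei and its log2 ratio at 0.14 (-2.35 to 5.45). A count of 0 in these nuclei allows a level of up to 0.60, taken as 3 UMIs of the total, or 0.738 by the upper end of the 95% Poisson interval, and both lie above the level of Hcn3 and Hcn4 in sensory neurons, so no difference was detectable in the male library.

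**Figure D3:**
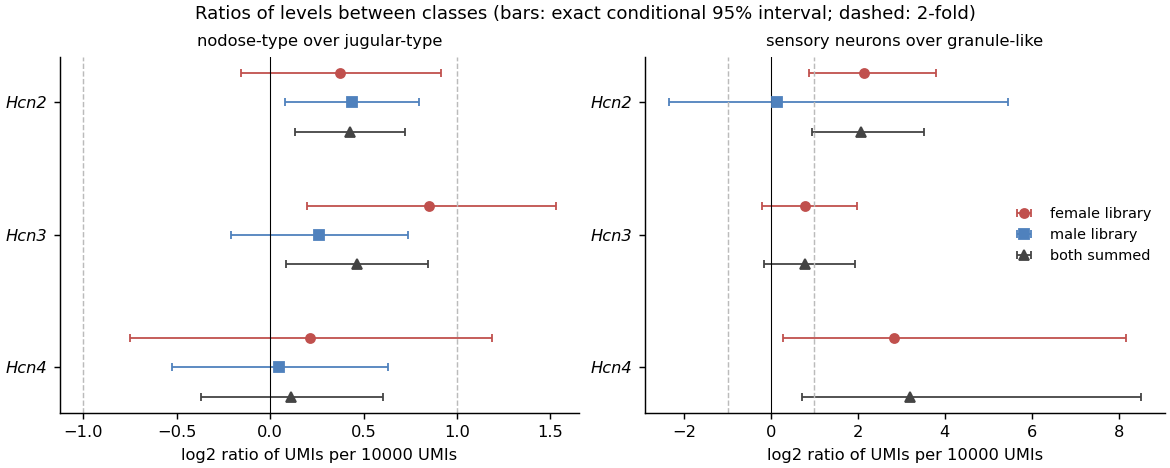
Log2 ratio of levels (x axis) of each member, nodose-type over jugular-type neurons on the left and sensory neurons over granule-like nuclei on the right, for the female library (circles), the male library (squares) and both summed (triangles), with exact conditional 95% intervals and dashed lines at 2-fold. All nodose-type over jugular-type points lie between 0.05 and 0.85, and Hcn3 and Hcn4 have no male point on the right because male granule-like nuclei held no UMI of them.

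Non-neuronal nuclei also carried UMIs of these genes. In macrophage-like nuclei Hcn2 stood at 0.176 (0.0845 to 0.324, 10 UMIs), Hcn3 at 0.0352 (0.0043 to 0.127, 2 UMIs) and Hcn4 at 0.0176 (0.0004 to 0.0981, 1 UMI). Hcn2 in sensory neurons was 0.26 higher on the log2 scale (-0.63 to 1.33), a difference the counts could not show. Hcn3, at a ratio of 3.68 (1.01 to 30.5), and Hcn4, at 4.38 (0.774 to 174), were past 2-fold higher in sensory neurons, as were 18.4% of 16872 genes, and the interval of Hcn4 includes no difference.

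Macrophage-like nuclei held other neuronal transcripts too, with P2rx2 at 0.335 and Snap25, a synaptic fusion protein of all neurons, at 3.63 against 12.7 in nodose-type neurons. Per 100 UMIs of P2rx2 there were 24.3 of Hcn2 in nodose-type neurons, 40.4 in Schwann cell-like, 50.8 in satellite glia-like, 31.9 in fibroblast-like and 52.6 in macrophage-like nuclei. For Hcn3 the same ratio was 15.1 in nodose-type neurons, 22.3 in Schwann cell-like, 26.6 in satellite glia-like, 15.9 in fibroblast-like and 10.5 in macrophage-like nuclei. Hcn4 stood at 8.11 per 100 P2rx2 UMIs in nodose-type neurons, 10.6 in Schwann cell-like, 13.3 in satellite glia-like and 5.26 in macrophage-like nuclei. In fibroblast-like nuclei it stood at 55.1, with 113 in females and 26.1 in males. Sympathetic neuron-like nuclei gave 87.1 for Hcn4 and adipocyte-like nuclei 71.4, the latter from 5 UMIs of Hcn4 and 7 of P2rx2. Endothelial cell-like nuclei gave 14.3 and barrier fibroblast-like nuclei 5.45. Jugular-type neurons, which hold little P2rx2, gave 216 for Hcn2, 131 for Hcn3 and 89.3 for Hcn4, and the part of free RNA from either kind of neuron in the other classes was not tested.

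Fibroblast-like nuclei, with the matrix proteoglycan gene Dcn at 20.2, had the highest Hcn4 level of the 11 named classes. The level was 0.178 over both libraries (0.126 to 0.244, 38 UMIs in 27 of 1043 nuclei), 0.223 in females (26 UMIs) and 0.124 in males (12 UMIs). Against sensory neurons the ratio was 2.31 (1.57 to 3.32), beside 19.1% of 17048 genes at least 2-fold higher in fibroblast-like nuclei. The log2 ratio was 1.83 in females (1.06 to 2.58) and 0.55 in males (-0.45 to 1.42), so that males alone did not reach 2-fold and their interval includes no difference. Of its 38 UMIs, 8 lay in 2 female nuclei, and without nuclei of 3 or more Hcn4 UMIs the level was 0.141. Hcn2 and Hcn3 were past 2-fold lower in fibroblast-like nuclei than in sensory neurons, at log2 ratios of -1.03 (-1.72 to -0.41) and -1.33 (-2.35 to -0.47), and 18.3% of genes were lower by that size. In males alone Hcn2 was not past it, at -0.72 (-1.64 to 0.08). Barrier fibroblast-like nuclei had 3 UMIs of Hcn4 and a level of 0.0180.

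The order of the 11 classes by level put nodose-type neurons first for Hcn2 at 0.240, then satellite glia-like at 0.184, jugular-type at 0.179 and macrophage-like nuclei at 0.176, with endothelial cell-like nuclei last at 0.0499. For Hcn3 nodose-type neurons were first at 0.149, sympathetic neuron-like nuclei next at 0.117 and jugular-type neurons after them at 0.108, and barrier fibroblast-like nuclei were last at 0.0240. For Hcn4 fibroblast-like nuclei came first, sympathetic neuron-like nuclei next at 0.137 (27 UMIs) and nodose-type neurons after them, with granule-like nuclei last. Of these neighbours only sympathetic neuron-like over nodose-type nuclei for Hcn4 differed beyond counting error, at a log2 ratio of 0.78 (0.09 to 1.42). Of the 27 Hcn4 UMIs in sympathetic neuron-like nuclei, 9 lay in 3 male nuclei. Without nuclei of 3 or more Hcn4 UMIs the level there was 0.0996. Nodose-type neurons stood at 0.0800 with their 2 such nuclei kept, so these values are not like for like. Sympathetic neuron-like nuclei came almost wholly from the male library, with 129 of 135 nuclei.

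**Figure D4:**
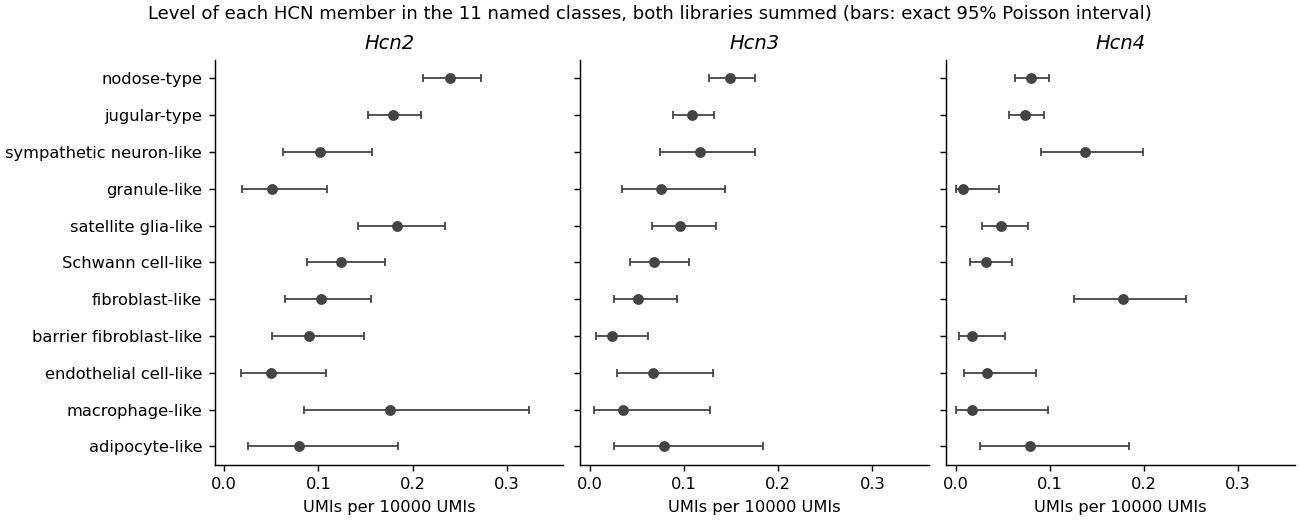
Level of each member (x axis, UMIs per 10000 UMIs) in the 11 named classes (y axis), both libraries summed, with exact 95% Poisson intervals. Hcn2 and Hcn3 are highest in nodose-type neurons, and Hcn4 is highest in fibroblast-like nuclei at 0.178.

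The members differed most in how they varied within the sensory neurons. These fell into 8 sub-clusters, 3 nodose-type and 5 jugular-type, numbered here by size among all neuronal sub-clusters. Names came from the difference between the nodose-type and jugular-type marker lists, as mean log2 folds over the other neuronal sub-clusters. In sub-cluster 9 the jugular-type list stood at -0.47 and the nodose-type list at -1.81. The jugular-type list stood at 0.08 in sub-cluster 10 and 0.22 in sub-cluster 11, against -2.09 and -2.02 for the nodose-type list. Other lists led in all of these. Hcn2 was nearly even, from 0.144 in sub-cluster 8 to 0.253 in sub-cluster 3, a range of 1.76-fold. Hcn3 ran from 0.0652 in sub-cluster 9 to 0.223 in sub-cluster 6, or 3.42-fold. Hcn4 ran from 0.0122 in sub-cluster 9 to 0.316 in sub-cluster 11, or 25.8-fold, though the lowest rests on 3 UMIs.

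Among nodose-type neurons, Hcn4 was highest in sub-cluster 6. This sub-cluster of 149 nuclei had Rmst, St18 and C1ql3 as leading genes and held Trpv1, the capsaicin and heat receptor, at 1.78, and P2rx2 at 1.61. Its Hcn4 level was 0.214 in females (0.117 to 0.359, 14 UMIs) and 0.174 in males (0.113 to 0.255, 26 UMIs). Against the other nodose-type nuclei the ratio was 3.65 (2.30 to 5.81), beside 4.77% of 14828 genes at least 2-fold higher in this sub-cluster. It was past 2-fold in each library, with log2 ratios of 2.91 in females (1.51 to 4.46, beside 6.65% of genes) and 1.5 in males (0.70 to 2.29, beside 4.87%). Those other nuclei were sub-clusters 2 and 3, so the high ratio partly mirrors the low level of sub-cluster 2. Sub-cluster 3 held Hcn4 at 0.0467 in females (0.0127 to 0.120, 4 UMIs) and 0.104 in males (0.0656 to 0.155, 23 UMIs). In each library alone its interval overlapped that of sub-cluster 6. Hcn3 was also highest in sub-cluster 6, at 0.223 (0.165 to 0.296, 48 UMIs). Its log2 ratio over the other nodose-type nuclei, 0.79 (0.27 to 1.30), stayed under 2-fold, though females alone gave 1.22 (0.36 to 2.04). Hcn2 did not stand out, at -0.13 (-0.62 to 0.33).

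Sub-cluster 2, the largest of the nodose-type groups with 321 nuclei, had Gm11234, Hs3st4 and Cysltr2 among its leading genes and held Trpv1 at 1.15. Its Hcn4 level was 0.0187 in females (3 UMIs) and 0.0316 in males (10 UMIs), below both values of sub-cluster 6. Against the other nodose-type nuclei its log2 ratio was -2.23 (-3.21 to -1.36), beside 1038 of 14828 genes at least 2-fold lower in this sub-cluster. Those other nuclei were sub-clusters 3 and 6, so the low ratio partly mirrors the high level of sub-cluster 6. Over both libraries the Hcn4 interval of sub-cluster 2, 0.0145 to 0.0466, lay below that of sub-cluster 3 as well. In females alone the intervals of sub-clusters 2 and 3 overlapped. Sub-clusters 2 and 6 both carried Trpv1 and stood at opposite ends of Hcn4 among nodose-type neurons. Sub-cluster 3, which held the mechanosensitive channel gene Piezo2 at 7.60, lay between them with an Hcn4 level of 0.0877 (0.0578 to 0.128, 27 UMIs).

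Among jugular-type neurons, Hcn4 was highest in sub-cluster 11, 57 nuclei marked by the cold and menthol receptor gene Trpm8 at 26.5 against 1.91 in jugular-type neurons as a whole. The Hcn4 level there was 0.248 in females (0.0997 to 0.511, 7 UMIs) and 0.383 in males (0.191 to 0.685, 11 UMIs). Against the other jugular-type nuclei the ratio was 5.48 (3.0 to 9.57), with 9.19% of 14480 genes at least 2-fold higher, and the log2 ratio was 2.63 in females (1.04 to 4.09), where jugular-type nuclei held 19 UMIs of Hcn4, under the minimum of 20 for a call, and 2.51 in males (1.39 to 3.51). The 18 UMIs lay in 11 nuclei, of which 1 male nucleus held 6, and without the 2 nuclei of 3 or more Hcn4 UMIs the level was 0.182. Taken nucleus by nucleus, jugular-type nuclei of at least 3 Trpm8 UMIs gave 0.211. Hcn2 at 0.246 (0.134 to 0.412, 14 UMIs) and Hcn3 at 0.123 (0.0494 to 0.253, 7 UMIs) stayed under 2-fold from the rest. When each gene was scaled within each library before clustering, the sub-cluster led by Trpm8, with 64 nuclei, was left unnamed.

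Within the jugular-type class Hcn4 was lowest in sub-clusters 9 and 10, which both carried Piezo2, on 3 and 4 UMIs. Nodose-type sub-cluster 2, at 0.0273, lay below sub-cluster 10, at 0.0302. Sub-cluster 9 had Tafa1, Grm8 and Zfp804b among its leading genes, held Piezo2 at 16.1 and had 1 female and 2 male UMIs of Hcn4 in 104 nuclei, with a log2 ratio of -2.99 to the other jugular-type nuclei (-5.30 to -1.37). Sub-cluster 10 held Piezo2 at 25.4 and had 4 UMIs of Hcn4, all in the male library, with a log2 ratio of -1.43 (-3.35 to -0.01) whose interval nearly reaches no difference. Of the genes tested, 8.78% were at least 2-fold lower in sub-cluster 9 and 13.7% in sub-cluster 10. Sub-cluster 5, which held Mrgprd, a receptor gene of non-peptidergic nociceptors, at 1.09, carried Piezo2 at 11.2 and an Hcn4 level of 0.0663 (0.0386 to 0.106, 17 UMIs). Sub-cluster 8, which held the neuropeptide gene Calca at 20.1, had Hcn4 at 0.116 (0.0753 to 0.172, 25 UMIs) and a log2 ratio of 0.94 (0.16 to 1.68), just under 2-fold. In the order of all 8 sub-clusters no neighbours differed beyond counting error for any member.

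**Figure D5:**
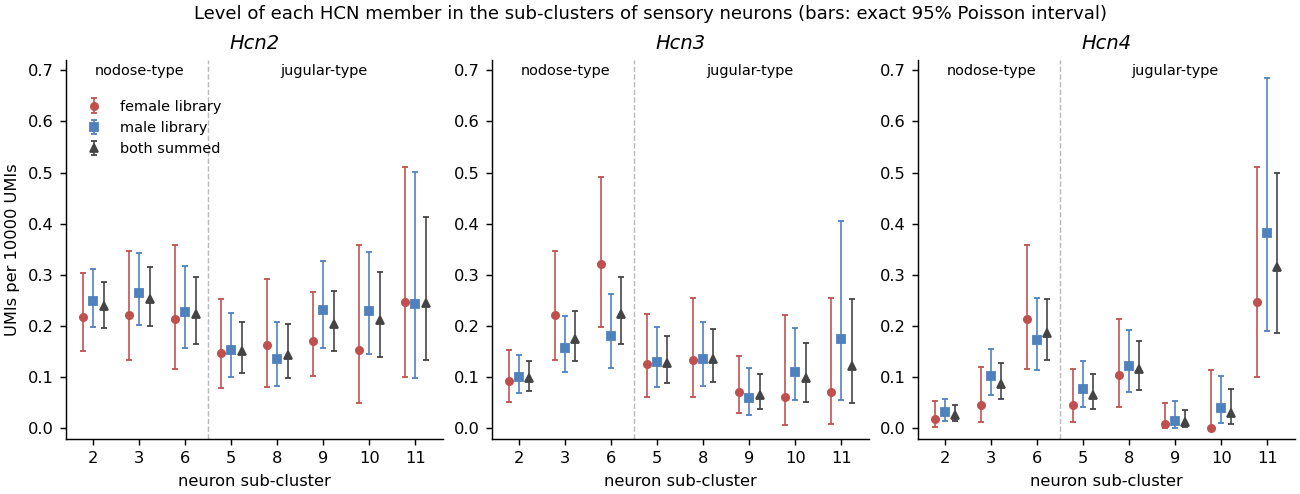
Level of each member (y axis, UMIs per 10000 UMIs) in the 8 sub-clusters of sensory neurons (x axis), nodose-type left and jugular-type right of the dashed line, for the female library (circles), the male library (squares) and both summed (triangles), with exact 95% Poisson intervals. Hcn2 stays between 0.144 and 0.253 when both libraries are summed, while Hcn4 peaks in sub-clusters 6 and 11 in each library.

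The partners of the HCN channels were taken from a list of 9, of which 7 had a row and 4 reached 20 UMIs. Pex5l, which encodes the auxiliary subunit TRIP8b that sets HCN trafficking and cAMP response, stood at 6.78 in nodose-type, 4.95 in jugular-type and 1.31 in granule-like nuclei. Its log2 ratio was 0.45 between nodose-type and jugular-type neurons (0.40 to 0.51) and 2.18 between sensory neurons and granule-like nuclei (1.95 to 2.41). The ratios of all members pointed in the same directions, though the interval of Hcn4 in the first and of Hcn3 in the second includes no difference. Nedd4l, a ubiquitin ligase, was past 2-fold lower in nodose-type neurons, at a log2 ratio of -1.26 (-1.31 to -1.21). Flna, a filamin that binds the channels, had a log2 ratio of -0.79 (-1.10 to -0.49). Between nodose-type and jugular-type neurons 0 of the 4 tested were higher and 1 lower by 2-fold, beside 8.09% and 7.61% of all genes, with a median log2 ratio of -0.18 against 0.01 over all genes tested.

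Cyclic AMP for these channels is made by the adenylyl cyclases, of which 9 of 10 could be tested. Between nodose-type and jugular-type neurons 2 were higher and 2 lower by 2-fold, beside 8.09% and 7.61% of all genes, and the median log2 ratio was -0.36 against 0.01 over all genes. The higher ones were Adcy2, at 3.72 against 1.4 with a log2 ratio of 1.41 (1.32 to 1.5), and Adcy8, at 0.339 against 0.104 with 1.71 (1.38 to 2.05). The lower ones were Adcy5, at -1.20 (-1.43 to -0.97), and Adcy7, at -1.29 (-1.80 to -0.80). Against granule-like nuclei, where 18.3% of all genes were higher and 15.1% lower, 1 was higher, Adcy2 at 2.64 (2.24 to 3.08), and 3 were lower, with Adcy1 at -3.87 (-4.10 to -3.65), a calmodulin-stimulated cyclase.

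The related cyclic nucleotide-gated channels, which open on binding cGMP or cAMP, were nearly absent. Of the 6 genes listed, 2 reached 20 UMIs, Cnga3 with 25 and Cngb1 with 30 UMIs over the nodose-type, jugular-type and granule-like nuclei, and neither passed 2-fold. The KCNH channels, voltage-gated potassium channels with a cyclic nucleotide-binding fold like that of HCN channels, had 1 of 7 tested higher and 3 lower by 2-fold in nodose-type neurons, beside 8.09% and 7.61% of all genes, and a median log2 ratio of -0.91 against 0.01 over all genes. Kcnh8 was the higher one, at a log2 ratio of 1.41 (1.30 to 1.53), and the lower ones were Kcnh7 at -1.14 (-1.19 to -1.08), Kcnh1 at -2.06 (-2.25 to -1.87) and Kcnh5 at -2.26 (-2.73 to -1.82). Kcnh6 at -0.78 (-1.07 to -0.49) and Kcnh2 at 0.95 (0.54 to 1.38) stayed under 2-fold. Against granule-like nuclei 4 of 7 were higher in sensory neurons and 1 lower, beside 18.3% and 15.1% of all genes, with the largest ratio for Kcnh7 at 4.58 (4.10 to 5.10).

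Some channels that act in the same voltage range differed more between the sensory classes than the members did. Kcnq3, a subunit of the M-current that opposes HCN current near rest, stood at 9.71 in nodose-type and 1.14 in jugular-type neurons, a log2 ratio of 3.09 (2.99 to 3.18), and Kcnq5 at 0.629 and 3.19, a log2 ratio of -2.34 (-2.47 to -2.22). Of the T-type calcium channels, which open after the hyperpolarization that also opens HCN channels, Cacna1i was lower in nodose-type neurons at -4.05 (-5.21 to -3.08), and Cacna1h had a log2 ratio of 0.48 (0.21 to 0.76). The third, Cacna1g, had 71 UMIs in the 3 classes, under the 100 set for giving values, and was the T-type gene higher by 2-fold.

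The genes most like each member were sought by the correlation of log2 levels over the 26 clusters and sub-clusters among 13422 genes of at least 200 UMIs. For Hcn2 they were Ccne1 at 0.78, Gm17396, Tmem8, Edil3 and Fsd1 at 0.77. For Hcn3 they were Rnps1 at 0.80, Celf5, Gm49027, Dpysl5 and Carmil3 at 0.76. For Hcn4 the correlations were lower, from Pwp1 at 0.66 over Stx1a, B3gnt2 and Pcdhb22 to Zmym3 at 0.63. Among the members, Hcn2 and Hcn3 correlated at 0.55, Hcn3 and Hcn4 at 0.45 and Hcn2 and Hcn4 at 0.20. These values describe the clusters, which share libraries and free RNA and are not replicates.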

How the data were processed

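Single-nucleus RNA of vagus nerve ganglia was measured in 1 female and 1 male 10x library. The deposited counts are UMI counts per gene and nucleus that the authors made with Cell Ranger on mm10 with introns included, after removal of debris, and aggregated with normalisation for mapped reads. The study states a minimum of 1000 UMIs and 250 genes. The files hold 3791 female and 4923 male barcodes, as many as the study gives, of which 3771 and 4923 pass both limits. No column of per-sample values was left unused (0), and doublets were not called here.

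Barcodes carry a library number, and no label states directly which sex it belongs to. It was assigned by matching the number of barcodes to the nuclei the study gives for each sex, and the sex-linked genes matched. Nuclei were clustered on 10 principal components of scaled log values with 243 neighbours and the Louvain method (igraph 0.11.9), at the resolution (3.0) that gave 20 clusters, and neuron-like clusters again on 20 components. The HCN genes, Xist, Tsix and Y-linked genes were left out. Clusters took names from marker lists by mean fold, with limits on competing lists set after the clusters were seen, so names differ in origin from those of the study.

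Counts were summed per class and library and divided by all UMIs. Intervals are exact at 95% (Poisson, conditional binomial for ratios, Clopper-Pearson for shares, scipy 1.17.1) and cover counting error only. A difference is called past 2-fold with at least 20 UMIs, 0.5 UMIs added. The members and lists were chosen with earlier results of these data known. Genes named are the members, list genes of at least 100 UMIs over nodose-type, jugular-type and granule-like nuclei, and the 5 genes most like each member by Pearson correlation of log2(level + 0.05); the marker genes given for classes and sub-clusters, P2rx2 as the base of ratios, and Cacna1g, Cnga3 and Cngb1, were named after their values were seen, and some genes of the family and lists are not reported here. Alternatives were other clusterings, depth limits, means over nuclei, nucleus-by-nucleus classes and single libraries. Calls and intervals were tested on simulated data with Poisson counts drawn for whole classes. That setting holds no spread between nuclei or mice, so it cannot show how the intervals cover such spread.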

Additional observations from a re-analysis of the deposited data

Results flagged for a closer look

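Several ratios of the members pointed one way in the female and the other way in the male library. Each rests on 1 library of each sex, and none of these differences was tested. Hcn4 in sensory neurons over the non-neuronal named classes had a log2 ratio of -0.48 in females and 1.07 in males, a difference of -1.55. Seen the other way, the log2 ratio of male over female for Hcn4 was 0.43 in sensory neurons and -1.12 in the non-neuronal classes, a difference of 1.55. Within this, Hcn4 in Schwann cell-like nuclei over sensory neurons stood at 0.02 in females, with 8 UMIs in Schwann cell-like nuclei, and at -2.93 in males, with 2, a difference of 2.94.

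For Hcn3 the log2 ratio of male over female was -0.37 in nodose-type and 0.22 in jugular-type neurons, a difference of -0.59, and -0.11 in sensory neurons against 0.59 in the non-neuronal classes, a difference of -0.70. Hcn3 in sensory over sympathetic neuron-like nuclei differed by -1.07, from -0.81 in females, with 6 sympathetic neuron-like nuclei, to 0.26 in males. In sub-cluster 11 over the other jugular-type nuclei Hcn3 differed by -1.16, from -0.50 to 0.65, with 2 and 5 UMIs in the sub-cluster.

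The granule-like nuclei of males gave Hcn2 from a single UMI. Hcn2 in jugular-type over granule-like nuclei was 1.94 in females and -0.12 in males, a difference of 2.06, and in granule-like over macrophage-like nuclei -2.07 and 0.24, a difference of -2.31. Hcn4 in sub-cluster 3 over the other nodose-type nuclei was -0.69 in females and 0.42 in males, a difference of -1.11. Hcn2 in sub-cluster 10 over the other jugular-type nuclei was -0.14 and 0.39, a difference of -0.53.

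The members were also counted in nuclei that no comparison used. Sub-cluster 1, 679 unnamed neuronal nuclei with a median of 2261 UMIs, held 40 UMIs of Hcn2, 27 of Hcn3 and 10 of Hcn4. Sub-cluster 4, 215 unnamed neuronal nuclei whose leading genes included the glial gene Apoe, held 84, 56 and 49 UMIs, and its Hcn4 level was 0.137. The unnamed clusters outside the neurons held 60 UMIs of Hcn2, 27 of Hcn3 and 32 of Hcn4, at levels of 0.130, 0.0584 and 0.0692, and 8 of those Hcn4 UMIs lay in 1 female nucleus.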

How the results depend on the processing

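No paired analysis was possible because each sex is 1 library and the labels give no replicate numbers. With 1 library of each sex, the gap between the libraries includes any effect of sex and gives no spread within a sex. The counts limit every granule-like value, which rests on 1 to 9 UMIs of a member. Of the levels of the members under the alternatives, 26 of 27 in nodose-type, 25 of 27 in jugular-type and 19 of 24 in granule-like nuclei stayed within the counting interval of the value reported, as did 84 of 89 log2 ratios. For the rest the cause was not tested. With classes assigned nucleus by nucleus, the jugular-type level was 0.227 for Hcn2 and 0.145 for Hcn3, the log2 ratio of Hcn2 between nodose-type and jugular-type neurons was 0.038, and that of Hcn4 between males and females in jugular-type neurons was -0.67. In females alone the nodose-type level of Hcn3 was 0.177 and its log2 ratio to jugular-type neurons 0.85. In males alone the granule-like level was 0.20 for Hcn2 and 0 for Hcn3 and Hcn4, and the log2 ratio of Hcn2 between sensory neurons and granule-like nuclei was 0.14. The mean of both libraries put Hcn2 at 0.122 in granule-like nuclei and this ratio at 0.76, under 2-fold. Scaling each gene within each library before clustering gave 0 for Hcn4 in granule-like nuclei. Thinned to 1000 UMIs, the shares with Hcn2 were 1.74%, 1.44% and 0.246% in nodose-type, jugular-type and granule-like nuclei, with Hcn3 1.59%, 1.08% and 0.985%, and with Hcn4 0.579%, 1.26% and 0%.

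Genes past 2-fold higher in nodose-type than in jugular-type neurons numbered 1339, 695 with a minimum of 100 UMIs and 2428 at 1.5-fold, and lower genes 1259, 729 and 2244. Between sensory neurons and granule-like nuclei 3069 were higher, 1919 with a minimum of 100 UMIs and 1609 in males alone, and 2542 were lower, 1372 with that minimum, 4211 at 1.5-fold and 6327 in males alone. Of the 5 genes most like Hcn2, 3 remained by Spearman correlation. For Hcn3, 2 remained with 0.5 added and 2 by Spearman correlation, and for Hcn4, 3 with 0.5 added, 2 by Spearman correlation and 2 with a minimum of 50 UMIs. A coarser clustering named no granule-like cluster and gave no value. The levels of Hcn4 without nuclei of 3 or more of its UMIs, in fibroblast-like and sympathetic neuron-like nuclei and sub-clusters, were chosen after seeing the data. So were those in single libraries and in nuclei with Trpm8.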
